A study of Mus musculus with 15 samples.

Results

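miR-22 is a microRNA (miRNA) whose single mouse hairpin yields miR-22-3p and miR-22-5p, one from each arm. Both entries were found by name in the count table, and they are 2 of its 1205 miRNA entries. They were selected on measured values of these libraries, the CLP against sham difference in counts, share of counts and arm ratio. Their differences between the groups are therefore given as a description, without a test.

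The study profiled extracellular miRNAs in plasma from male wild-type C57BL/6J mice 24 h after surgery. In 9 libraries the mice had undergone cecal ligation and puncture (CLP), which lets gut bacteria into the abdomen and models polymicrobial sepsis, and in 6 libraries a sham operation. Per the labels' protocols, the plasma was cleared of cells and platelets, so the libraries hold circulating RNA of unknown cellular source. The labels do not say whether each library is a separate mouse, give no batch and give no age. Library totals ran from 5274676 to 13576482 counts. In such a mixture, more release of a miRNA and less of the other miRNAs cannot be told apart.

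When a hairpin is processed, Drosha and then Dicer release a short duplex of the 5p and 3p arms. As a rule one strand is loaded into an Argonaute protein and guides it to matching mRNAs, while the other is degraded. miR-22-3p, the guide strand, is conserved across vertebrates and abundant in heart, skeletal muscle and blood-forming cells. It represses mRNAs such as Tet2, a DNA demethylase of blood stem cells, and mice without miR-22 have an altered cardiac response to stress. miR-22-5p is the passenger strand, and its arm share is one readout of how the hairpin was processed and its strands kept.

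The mature strands and the hairpin are shown because the arms pair with each other and yet carry different seeds, the bases 2 to 8 from the 5′ end that choose targets. The sequences are from RefSeq on GRCm38.p6. In the mature strands the capitals mark the seed, and in the hairpin they mark both mature strands, the 5p arm first.
mmu-miR-22-3p: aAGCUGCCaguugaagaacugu
mmu-miR-22-5p: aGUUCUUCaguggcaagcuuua
Mir22 hairpin: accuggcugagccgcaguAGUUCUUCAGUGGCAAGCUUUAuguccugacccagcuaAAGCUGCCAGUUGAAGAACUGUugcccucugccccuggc

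The hairpin spans 95 bases of chromosome 11, from 75463716 to 75463810 on the plus strand (GRCm38). The 5p strand lies at 75463734 to 75463755 and the 3p strand at 75463772 to 75463793. The whole hairpin lies inside exon 2 of both annotated transcripts of Mir22hg, its long noncoding host gene, and inside exon 2 of 1 noncoding transcript of Tlcd2, a membrane protein gene that overlaps the host gene on the same strand. In the predicted minimum free energy fold, at -41.9 kcal/mol, 19 of the 22 bases of the 3p strand pair with the 5p strand, and in both strands all 7 seed bases are paired with the other arm. No other of 1678 annotated mouse mature miRNA names shares the seed of either arm. In all 15 libraries the counts of both entries were whole numbers, so no read was seen to be divided between either arm and another entry.

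miR-22-3p, the guide strand, was one of the most abundant miRNAs in these plasma samples and took about 3 times as large a share of the counts after CLP. Its share had a lowest value of 3.68%, a median of 10.3% and a highest value of 19.8% in CLP libraries, against 2.15%, 3.07% and 4.62% in sham libraries. The groups overlapped in 1 library, since 8 of the 9 CLP libraries lay above every sham library and CLP 5 lay within the sham range. In the scaled units used below, at least 8 CLP libraries lay above every sham library for 68 of 426 tested miRNAs, or 16%. The means were 10.5% ± 5.06 (SD, n = 9) in CLP and 3.32% ± 0.941 (SD, n = 6) in sham, a difference of 7.21 percentage points. The ratio of these means was 3.17.

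In rank among all 1205 entries, miR-22-3p ran from place 1 to place 5 in CLP libraries and from place 4 to place 11 in sham libraries. It was the most abundant entry in CLP 2 and CLP 3, the libraries with 16.6% and 19.8%. In scaled units (CPM, counts scaled to a common library size adjusted by TMM, the trimmed mean of M-values), miR-22-3p averaged 114353 ± 61576 CPM in CLP (SD, n = 9) and 29869 ± 7318 CPM in sham (SD, n = 6). edgeR's fit over all 426 tested miRNAs put its log2 fold change at 1.94 ± 0.34 (SE), against a median of 0.11 over all tested miRNAs. The value was 1.67 with scaling by library size alone, which moved the median of all miRNAs by -0.23, and 1.90 when both miR-22 arms were kept out of the scaling.

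miR-22-5p, the passenger strand, was scarce but was higher after CLP by about as much. It was read 192 to 686 times in CLP libraries and 47 to 115 times in sham libraries. As a rate per 1000000 miRNA counts it had a lowest value of 16.0, a median of 30.7 and a highest value of 50.5 in CLP libraries, against 7.48, 10.9 and 17.1 in sham libraries. Here too 8 of 9 CLP libraries lay above every sham library and CLP 5 lay within the sham range, just under sham 5. In TMM-scaled CPM the groups did not overlap, with a lowest CLP value of 16.9 and a highest sham value of 15.3, so the separation of CLP 5 depends on the scaling.

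The mean of miR-22-5p was 34.6 ± 12.9 CPM in CLP (SD, n = 9) and 10.3 ± 3.36 CPM in sham (SD, n = 6). Its log2 fold change was 1.75 ± 0.28 (SE). Of all 426 tested miRNAs, 8.45% had every CLP library above every sham library in CPM, and 16% had at least 8 CLP libraries above. At an edgeR adjusted p under 0.05, 25.4% were called higher in CLP and 21.8% were called lower. Both arms were among those called higher, but nothing is read from that, since the contrast was used to choose them. Among the 426 log2 fold changes, from the largest rise down, miR-22-3p stood at place 29 and miR-22-5p at place 40.

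**Figure D1:**
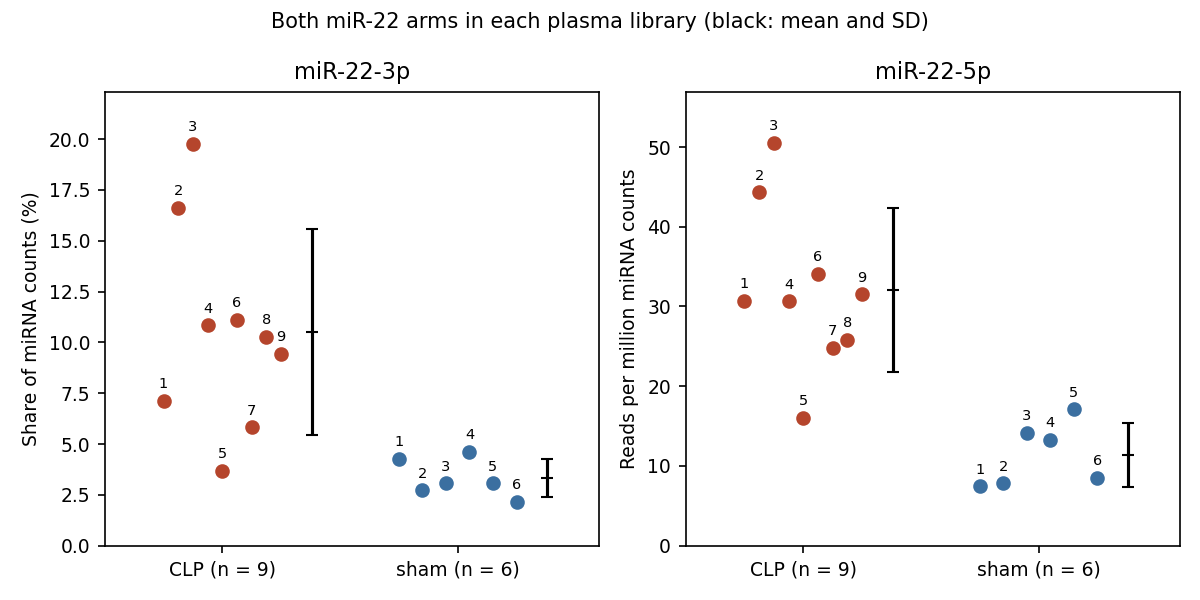
Share of miRNA counts of miR-22-3p in percent (left) and reads of miR-22-5p per 1000000 miRNA counts (right) in each library, numbered by replicate, with the mean and SD in black. In both panels CLP 2 and CLP 3 are highest and only CLP 5 of the CLP libraries falls within the sham range.

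The balance between the arms showed no difference of a size near that in either arm. Each read of miR-22-5p stood beside 3157 ± 695 reads of miR-22-3p in CLP (SD, n = 9) and beside 3195 ± 1411 in sham (SD, n = 6). The log2 ratio of 3p to 5p counts was lowest at 11.16, had a median of 11.67 and was highest at 11.95 in CLP libraries, against 10.80, 11.53 and 12.46 in sham libraries. All 9 CLP libraries lay within the sham range. The group means were 11.59 ± 0.33 in CLP and 11.52 ± 0.60 in sham, a difference of 0.06 that is smaller than the SD within either group. This ratio does not depend on depth or scaling, but adapter ligation favours some end sequences, so its level is not the molar ratio of the strands.

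The arm share was not the same in every library of a group. The share of miR-22-5p among all miR-22 reads was 0.0425% to 0.0435% in CLP 1, CLP 5 and CLP 7, and 0.0251% to 0.0334% in the other 6 CLP libraries. The exact 95% binomial interval was 0.0376% to 0.0502% in CLP 5 and 0.0237% to 0.0275% in CLP 3. CLP 1, CLP 5 and CLP 7 were also the CLP libraries with the lowest share of miR-22-3p. In sham the share ran from 0.0175% (0.0129% to 0.0233%) in sham 1 to 0.0558% (0.0461% to 0.0669%) in sham 5. Such intervals cover counting error only, since PCR copies are not independent molecules.

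**Figure D2:**
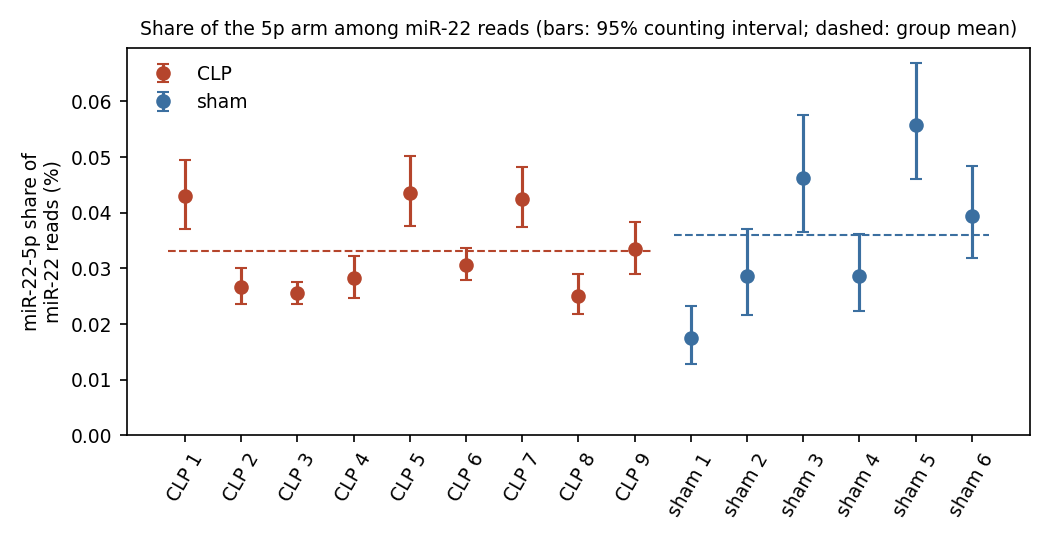
Share of miR-22-5p among all miR-22 reads in percent, for each library, with exact 95% binomial intervals and the group means as dashed lines. The means, 0.0332% in CLP and 0.0361% in sham, lie close together while single libraries spread from 0.0175% to 0.0558%.

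To see how common such a small difference was, the ratio of the arms was taken for every hairpin with both arms tested. There were 98. The size of the difference between CLP and sham in the log2 arm ratio had a median of 0.85 over these hairpins and exceeded 1 in 41 of them. For miR-22 it was 0.06, with 9 hairpins below it. That place depends on single libraries: the difference was 0.25 with 17 hairpins below it without sham 1, -0.08 with 7 below it without sham 5, and between these with 1 to 14 below it without any other single library. Its mean log2 ratio was the fourth most lopsided of the 98. Both arms were called higher in 10 of the 98 hairpins, or 10.2%, both lower in 11, or 11.2%, and the arms were called in opposite directions in 9, or 9.18% (edgeR adjusted p under 0.05 for each arm).

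Among hairpins whose arms both averaged 10 CPM or more, the largest rises of the log2 3p to 5p ratio were 4.03 for miR-423, 3.73 for miR-191 and 3.47 for miR-434, and the largest falls were -5.18 for miR-574, -2.38 for miR-222 and -2.36 for miR-223. The miR-574 hairpin had a log2 ratio of -0.73 ± 0.69 in CLP (SD, n = 9) and 4.45 ± 0.49 in sham (SD, n = 6). These differences are given to place miR-22 among the hairpins and were not tested as ratios.

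**Figure D3:**
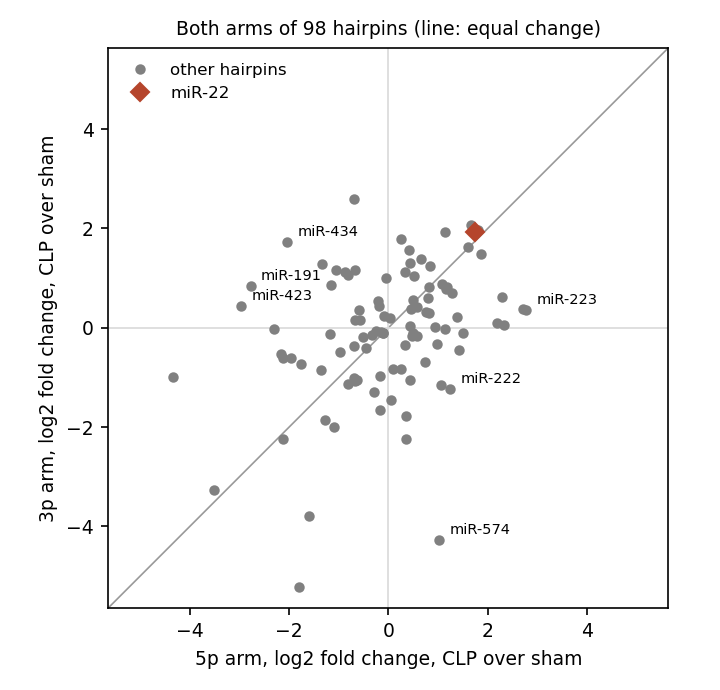
Log2 fold change, CLP over sham, of the 5p arm (horizontal axis) and the 3p arm (vertical axis) of 98 hairpins, with the line of equal change. miR-22 lies near the line at 1.75 and 1.94, while the named hairpins lie far from it.

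The arms were also compared within each group. The choice of miR-22 used the arm ratio per library, and a ratio that varies little makes the arms correlate, so these relations are a description with no test. Within CLP, Pearson's r between log2 CPM of the arms was 0.95 and Spearman's coefficient 0.80 over 9 libraries. Both arms were highest in CLP 3, then in CLP 2, and lowest in CLP 5. Without CLP 3 and CLP 5, the libraries farthest from the median, r was 0.85 over 7 libraries, and it was 0.92 to 0.97 on leaving out any 1 library.

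Within sham, r between the arms was -0.05 and Spearman's coefficient 0.09 over 6 libraries, and r was 0.55 without sham 1 and sham 5. The sign also turned with the scaling, so no direction is given for sham. The difference between the relations in CLP and in sham was not tested. Both values of a library share its scaling and its total. Over its group, miR-22-3p varied with an SD of 0.79 in log2 CPM in CLP and 0.34 in sham, against medians over all tested miRNAs of 0.56 and 0.48. For miR-22-5p the SD was 0.52 in CLP and 0.45 in sham.

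**Figure D4:**
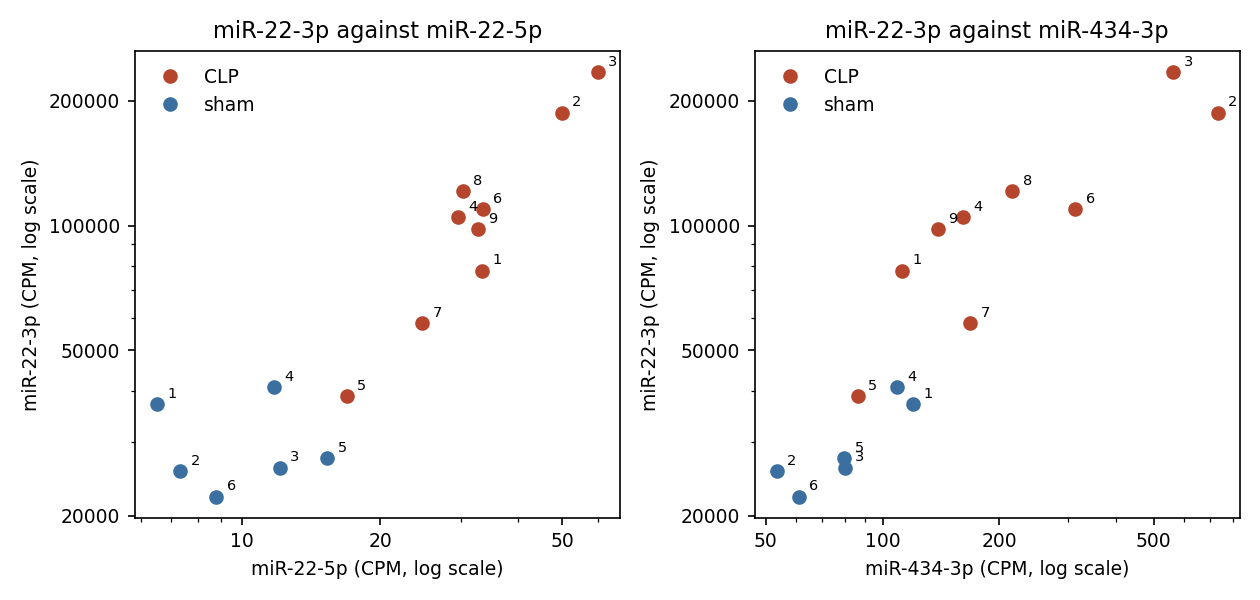
CPM of miR-22-3p (vertical axis, log scale) against CPM of miR-22-5p (left) and of miR-434-3p (right; horizontal axes, log scale) in each library, numbered by replicate within CLP and sham. The 9 CLP libraries form a rising band in both panels, and the 6 sham libraries do so only against miR-434-3p.

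The 5 miRNAs that varied most like miR-22-3p among libraries of a group all lie in one region of the genome. Likeness was Pearson's r between deviations of log2 CPM from the group means over the 15 libraries, for 247 other miRNAs averaging 10 CPM or more, and is a description with no test. The 5 highest for miR-22-3p were miR-434-3p (0.88), miR-127-3p (0.86), miR-300-3p (0.84), miR-136-3p (0.84) and miR-381-3p (0.83). That region is on chromosome 12, the imprinted Dlk1-Dio3 domain, whose miRNAs are expressed from the maternal chromosome. For miR-434-3p, r was 0.88 within CLP and 0.88 within sham. Over the rest of these 5, r was 0.82 to 0.88 within CLP. Within sham it ran from 0.47 (miR-300-3p) to 0.93 (miR-381-3p).

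miR-434-3p averaged 276.6 CPM in CLP and 83.8 CPM in sham, with 730.7 and 561.3 CPM in CLP 2 and CLP 3, the libraries in which miR-22-3p was also highest. For miR-22-5p the 5 highest were miR-409-5p (0.89), miR-133b-3p of skeletal muscle (0.79), miR-379-5p (0.77), miR-127-3p (0.76) and miR-345-3p (0.75). Their r ran from 0.69 (miR-345-3p) to 0.96 (miR-409-5p) within CLP, and from 0.23 (miR-127-3p) to 0.92 (miR-345-3p) within sham. Likeness within the groups says nothing of the difference between them: miR-133b-3p averaged 174.8 CPM in CLP and 265.1 CPM in sham, the opposite order to miR-22-5p, with a log2 fold change that did not pass (-0.60 ± 0.51, edgeR adjusted p = 0.348). Of these, miR-409-5p, miR-379-5p and miR-127-3p lie in the same region, miR-345-3p elsewhere on chromosome 12 and miR-133b-3p on chromosome 1. The other arm of the miR-22 hairpin, at 0.73, stood at place 10 for miR-22-3p and at place 6 for miR-22-5p. Over all 98 hairpins the median of this r between arms was 0.37.

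The 7 of these miRNAs in the imprinted region lie between 109592888 and 109743194 on chromosome 12 (GRCm38.p6, plus strand), and 14 of the 214 ranked miRNAs with a known position lie in that span. The median r of the 14 was 0.70 with miR-22-3p and 0.67 with miR-22-5p, against -0.09 and -0.06 over the other ranked miRNAs. The span was chosen after these values were seen. Its ends were set by the 7 miRNAs, which are among the 14, so a high median within it is partly built in. In the span r ran from 0.24 to 0.88 with miR-22-3p and from 0.098 to 0.89 with miR-22-5p. Among the other ranked miRNAs the highest r was 0.76 with miR-22-3p and 0.79 with miR-22-5p. The libraries, their totals and their scaling are common to all of these values.

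Marker miRNAs of cells that could give miR-22 to plasma are set beside these values. Of 8 striated muscle miRNAs, 4 were called higher and 0 lower in CLP by edgeR's quasi-likelihood test, where 25.4% and 21.8% of all tested miRNAs were. These were miR-1a-3p of heart and skeletal muscle (log2 fold change 4.06 ± 0.74, edgeR adjusted p = 0.000247), miR-206-3p of skeletal muscle, and the scarce miR-208b-3p and miR-499-5p of myosin gene introns, the last of which was lost without sham 1 (edgeR adjusted p = 0.0559) or sham 6 (0.0560). miR-208b-3p, at 3.88 CPM in CLP and 0.129 CPM in sham, was below the filter on low counts and not tested when any of 6 CLP libraries (CLP 1, 2, 3, 4, 6 or 9) was left out. It thus passed the filter only through CLP libraries and could be tested only as higher, so its call adds nothing to the count of 4. The other 4 members did not pass. Of these, miR-133a-3p (0.54 ± 0.50, edgeR adjusted p = 0.400) and miR-208a-3p (1.24 ± 0.62, edgeR adjusted p = 0.110) had values above 0, while miR-133b-3p and miR-133a-5p (-0.20 ± 0.54, edgeR adjusted p = 0.778) had values below 0. The summed share of the list was 0.476% to 3.92% in CLP and 0.0515% to 0.824% in sham. In CLP this sum was mostly miR-1a-3p, at 18065 CPM against 1616 CPM for the next member, miR-206-3p. It therefore stands largely for 1 miRNA there. CLP 5 was the 1 CLP library within the sham range, as for the share of both miR-22 arms. It also had the highest share of miR-486a/b-5p in CLP, 34.0%. Shares within a library are not independent, since a larger share of 1 entry lowers those of the others. Within CLP, r of the list sum was 0.38 with miR-22-3p and 0.52 with miR-22-5p (n = 9). Without CLP 4 and CLP 5 these values were -0.43 and -0.28. Within sham they were 0.59 and 0.73 (n = 6), and 0.007 and 0.87 without sham 2 and sham 4. None over all libraries of a group passed after adjustment. The liver sum had a larger r with miR-22-5p within sham, as given below. The list's median log2 fold change, with miR-208b-3p included, was 1.59.

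Of 9 red cell miRNAs 1 was called higher and 1 lower, with a median log2 fold change of -0.10. miR-25-3p, which other cells also make, rose (1.17 ± 0.27, edgeR adjusted p = 0.00146), and miR-451a, a miRNA of maturing red cells, fell (-1.28 ± 0.32, edgeR adjusted p = 0.00313). The most abundant member, miR-486a/b-5p, missed the threshold (-0.70 ± 0.33, edgeR adjusted p = 0.0867), though it was called lower without CLP 3, CLP 5, sham 4 or sham 6 (edgeR adjusted p from 0.00372 to 0.0465), and miR-144-3p missed it as well (-0.10 ± 0.38, edgeR adjusted p = 0.838). The summed share of the list was 10.1% to 37.8% in CLP and 18.4% to 50.3% in sham, and CLP 5 had the highest in CLP. Most of it was miR-486a/b-5p, which alone held 34.0% in CLP 5 and 46.0% in sham 2, the libraries with the highest sums. With miR-486a/b-5p left out of the totals, miR-22-3p held 12.3% ± 6.13 in CLP (SD, n = 9) and 4.74% ± 1.46 in sham (SD, n = 6).

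An index of haemolysis, taken as the log2 ratio of miR-451a to miR-23a-3p counts, was -1.41 ± 0.99 in CLP (SD, n = 9) and -0.44 ± 0.67 in sham (SD, n = 6). Within CLP its r with miR-22-3p was -0.67 (exact permutation p = 0.0513, adjusted p = 0.417, n = 9) and with miR-22-5p -0.68 (exact permutation p = 0.0491, adjusted p = 0.417, n = 9). Spearman's coefficient was -0.57 for miR-22-3p (exact permutation p = 0.121, adjusted p = 0.452) and -0.38 for miR-22-5p (exact permutation p = 0.313, adjusted p = 0.717). Without CLP 5 alone r was -0.32 for miR-22-3p and -0.33 for miR-22-5p, and without CLP 5 and CLP 6 it was -0.53 for miR-22-3p and -0.48 for miR-22-5p. Within sham, r was -0.26 for miR-22-3p (exact permutation p = 0.601, adjusted p = 0.905, n = 6) and -0.70 for miR-22-5p (exact permutation p = 0.146, adjusted p = 0.514, n = 6). Without sham 3 and sham 4 it was 0.44 for miR-22-3p and -0.99 for miR-22-5p. With this index as a covariate the log2 fold changes were 1.42 for miR-22-3p and 1.35 for miR-22-5p.

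Of 7 liver miRNAs 2 were called higher and 0 lower, with a median log2 fold change of 0.84. miR-194-5p (0.84 ± 0.33, edgeR adjusted p = 0.0423) and the scarce miR-193a-3p rose, but miR-194-5p no longer passed when any of 11 of the 15 libraries was left out (edgeR adjusted p from 0.0504 to 0.115), and its change was 0.49 without CLP 1. By contrast, the hepatocyte miR-122-5p (1.39 ± 0.76, edgeR adjusted p = 0.139) and miR-192-5p (0.55 ± 0.29, edgeR adjusted p = 0.122) did not pass. Only miR-193b-3p of this list had a value below 0, and it did not pass (-0.69 ± 0.39, edgeR adjusted p = 0.149). The liver sum was 1.45% to 13.5% in CLP and 2.41% to 5.16% in sham. Of 6 myeloid miRNAs 3 were called higher and 0 lower, with a median of 1.25. They were miR-223-5p (2.78 ± 0.28, edgeR adjusted p = 4.03e-07), miR-155-5p of activated immune cells and the scarce miR-147-3p. With 5.71 CPM in CLP and 0.916 CPM in sham, miR-147-3p passed the filter on low counts by its CLP libraries, so its call adds little. The abundant miR-142a-5p (0.45 ± 0.19, edgeR adjusted p = 0.0627) and miR-223-3p (0.36 ± 0.21, edgeR adjusted p = 0.157) did not pass. The myeloid sum, whose most abundant member was miR-142a-5p, was 0.157% to 0.435% in CLP and 0.165% to 0.229% in sham.

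Of 6 platelet miRNAs 1 was called higher and 3 lower, with a median of -0.51. The higher one was miR-24-3p (0.84 ± 0.18, edgeR adjusted p = 0.00111), and the lower ones were miR-191-5p (-2.78 ± 0.28, edgeR adjusted p = 4.37e-07), miR-151-3p (-1.05 ± 0.20, edgeR adjusted p = 0.00035) and miR-199a/b-3p, whose call was lost without sham 5 (edgeR adjusted p = 0.0847). The platelet sum was 2.38% to 3.80% in CLP and 5.38% to 7.04% in sham, with no overlap. In sham its most abundant member was miR-191-5p, with 37342 CPM, against 5450 CPM in CLP. In CLP it was miR-24-3p, which went the other way, with 19713 CPM against 11004 CPM in sham. The sum without miR-191-5p was not computed, so the lack of overlap cannot be read as a trait of the whole list. miR-223-3p stands in both the myeloid and the platelet list. No member of the 5 lists was at 0 in every library, and other tissues also make several members. Of the 28 relations within the groups between an arm and a list sum, the haemolysis index or the library total, 0 passed after adjustment and 1 had an unadjusted exact permutation p under 0.05 for Pearson's r. With the log2 library total within CLP, r was -0.09 for miR-22-3p and -0.10 for miR-22-5p. Without CLP 3 and CLP 6 these were -0.84 and -0.91. Within sham r with that total was -0.72 for miR-22-3p and -0.31 for miR-22-5p, and -0.15 and -0.27 without sham 4 and sham 6. Within the groups, 0 of the 20 relations between an arm and a list sum passed, and 0 had an unadjusted exact permutation p under 0.05. By size the largest r of these 20 was 0.78, for the liver sum and miR-22-5p within sham (exact permutation p = 0.0556). Its adjusted p was 0.417. With the same arm within sham, r was -0.67 for the red cell, -0.62 for the myeloid and 0.26 for the platelet sum. For the liver sum within CLP, r was -0.40 with miR-22-3p and -0.28 with miR-22-5p. Without CLP 1 and CLP 6 these were -0.64 and -0.71. The part of these cells in the miR-22 values was not tested.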

How the data were processed

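Per the labels' protocols, RNA of platelet-free mouse plasma was made into small RNA libraries by adapter ligation and gel selection, which were then pooled at equal molar amounts, so counts are relative. The authors deposited expected counts (reads per miRNA entry, not scaled for depth) for 15 libraries. The table's name points to the small RNA pipeline exceRpt, and the submitters' processing notes list the build mm10. Not given in the sources used here are the aligner, the trimming and the miRNA annotation release. Of all values 4.56% were not whole, none of them in the miR-22 entries.

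Expected counts were rounded for testing with edgeR 4.0.16 in R 4.3.3 (filterByExpr, TMM scaling, robust quasi-likelihood F test of CLP against sham, no covariate, Benjamini-Hochberg adjustment over 426 tested miRNAs, threshold 0.05). The tested entries held at least 99.97% of each library. Standard errors were approximated from the log2 fold change and its F statistic. Arm ratios used a pseudocount of 0.5. Within-group relations used exact permutation of pairings on log2(CPM + 0.5), with adjustment over 30 relations, of which those between the arms are given with no p, since the choice of members used the arm ratio per library. None of the relations with list sums and library totals passed. Beside the counts, r is given for the striated muscle sum and the library total, and for the other sums only in part. The hairpin was folded with RNAfold 2.7.2, and positions came from RefSeq and GENCODE M21, both on GRCm38, the assembly that mm10 names. The fits were tested on simulated data. The members, lists and tests were chosen with earlier results of these data known. The genes named were both arms, the 5 miRNAs most like each, and the 3 hairpins with the largest rise and fall of the arm ratio. The 3 most abundant members of each list were also named, with some further members named after their values were seen. p-values measure the spread between libraries, which may be technical. Alternatives were DESeq2 1.42.0, limma 3.58.1 voom, other scalings, filters and pseudocounts, a haemolysis covariate, removal of a GC trend, and leaving out each library. Same-numbered CLP and sham libraries were checked for shared deviations.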

Additional observations from a re-analysis of the deposited data

How the results depend on the processing

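The log2 fold changes of both arms kept their direction in every alternative run. Apart from leaving out 1 library, they lay between 1.42 (haemolysis covariate) and 1.997 (replicates 1 to 6 alone) for miR-22-3p and between 1.35 and 1.79, under those same settings, for miR-22-5p. Every shift was below the pooled within-group SD (0.66 and 0.50 in log2 CPM), but that of miR-22-3p with the haemolysis covariate exceeded its SD of 0.34 within sham. With a GC trend removed (87.6% of tested miRNAs had a sequence) they were 1.76 and 1.43. On leaving out 1 library they were 1.67 to 1.97 and 1.55 to 1.91, both lowest without CLP 3. The arm ratio difference was 0.13 with a pseudocount of 5 and between -0.08 and 0.25 on leaving out 1 library.

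Same-numbered CLP and sham libraries did not deviate together (0 of 6 correlations over 0.1). Fitted on 12 libraries with that number as a replicate block, the log2 differences were 1.82 for miR-22-3p, 1.76 for miR-22-5p and 0.08 for the arm ratio. Under the block 71 miRNAs were called higher, against 87 in the same 12 libraries without it and 108 in all 15. Calls fell to 71 higher with the stricter filter, which tests fewer miRNAs, and were 167 lower, against 93, with no filter. Other causes were not tested.

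Of the red cell list, 3 were called lower with limma voom or library size scaling and 2 with no filter. Of the striated muscle list, 2 were called higher with the replicate block or with replicates 1 to 6 alone, and 1 was called lower with the haemolysis covariate. Of the liver list, 1 was called higher with limma voom, DESeq2 size factors, library size scaling, the replicate block, replicates 1 to 6 alone, the haemolysis covariate or the GC trend removed, 0 with the stricter filter, and 1 was called lower with library size scaling or the haemolysis covariate. Of the myeloid list 1 was called higher with the stricter filter. On leaving out 1 library the calls were 1 to 3 lower for red cells, 3 to 4 higher for muscle, 1 to 2 higher for liver and 2 to 4 lower for platelets.

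Within CLP, r between the arms was 0.85 without the 2 farthest libraries and 0.92 to 0.97 on leaving out 1 library. Within sham it was 0.17 with library size scaling, 0.060 with the miR-22 arms left out of the total, 0.55 without the 2 farthest libraries and -0.33 to 0.37 on leaving out 1 library. For miR-22-3p and the haemolysis index within sham, r was 0.44 without the 2 farthest libraries and -0.68 to 0.29 on leaving out 1 library. For miR-22-5p and that index within sham, r stayed negative, at -0.99 without the 2 farthest libraries and -0.97 to -0.57 on leaving out 1 library. Within CLP, leaving out 1 library gave -0.77 to -0.32 for miR-22-3p and that index, and -0.75 to -0.33 for miR-22-5p. Leaving out 1 library for these relations, and the unblocked fit on replicates 1 to 6, were chosen after seeing the data. The 47 to 115 miR-22-5p reads in sham limit the arm ratio there.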
